A study of Mus musculus with 6 samples.

Results

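Diploid cardiomyocytes (CMs) of the left ventricle were compared between the first and the fifth day after birth, P1-2n and P5-2n. Of the 7469 P1-2n and 4462 P5-2n cells, those with at least 1 UMI of each of Tnni3, Tnnt2, Actc1 and Tnnc1 were kept. These genes encode cardiac troponin I, T and C and cardiac alpha-actin, and a unique molecular identifier (UMI) marks 1 captured RNA molecule. This left 7340 P1-2n CMs (98.3%) and 4413 P5-2n CMs (98.9%), in sum 11753 CMs of the 31156 cells in the 6 libraries of the series. For each gene the UMIs of all CMs of 1 library were added up and scaled to the library's total, which gives CPM, the count of that gene in 1000000 UMIs. Both ages were untreated C57BL/6J mice with no transgene or agent named, at 1 and at 5 days after birth. Ventricles were dissociated, the cells were fixed in methanol, stained for sarcomeric myosin with an antibody to MYH1 and for DNA with Hoechst, and sorted by DNA content into 2n and 4n CMs. The other groups used here are the tetraploid CMs of the same ages (P1-4n with 4747 CMs, P5-4n with 3654) and diploid CMs of embryonic day 16.5 (E16.5-2n with 5699). Cells of 3 sorts, each of a litter of pooled pups, went into each library and cannot be separated, and there was 1 library per group.

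Rodent CMs pass through a short window after birth in which most of them replicate DNA a last time and many end with a pair of nuclei or a doubled genome. Over the same days the ventricle exchanges fetal for adult forms of the sarcomere proteins and moves its fuel from glucose and lactate towards fatty acids from milk.

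The P1-2n CMs held 16444942 UMIs and the P5-2n CMs 17924609. The median per CM was 1831 UMIs and 808 genes at P1 and 3759 UMIs and 1235 genes at P5, so that depth moved with age. Mitochondrially coded transcripts took 16.3% and 17.7% of the UMIs. The libraries shared 44 cell barcodes, 0.986% of the smaller one. With 1 library per age, no test between the ages can be made. Each ratio carries the 95% interval of the binomial split of its UMIs, and each level a 95% Poisson interval where it is given. Both cover counting error only, and neither covers the spread between litters or libraries.

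At least 100 UMIs in both libraries together were found for 9230 genes. Their median log2 ratio of P5 over P1 was -0.09, the quartiles were -0.33 and 0.16, and 90% lay between -0.73 and 0.74. A gene was called when its CPM differed by at least 2-fold. By this rule 279 genes, or 3.02%, were higher at P5, and 183 genes, or 1.98%, were lower. The genes nearest to the limit were Rfc5 (1.004) and Ccnd1 (0.995) on the higher side and Trp53inp1 (-1.001) and Bend5 (-0.999) on the lower side. A difference of at least 4-fold was found for 28 higher and 9 lower genes. Among the 1189 genes of at least 100 CPM at the age where they were higher, 10 were called higher and 22 lower, so that among abundant transcripts the lower calls outnumbered the higher ones. The plot of all genes shows these calls as a thin fringe around a narrow centre. The gene lists below were chosen with earlier results of these data known. Their shares of calls beside the shares over all genes are therefore descriptions and not independent support.

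**Figure D1:**
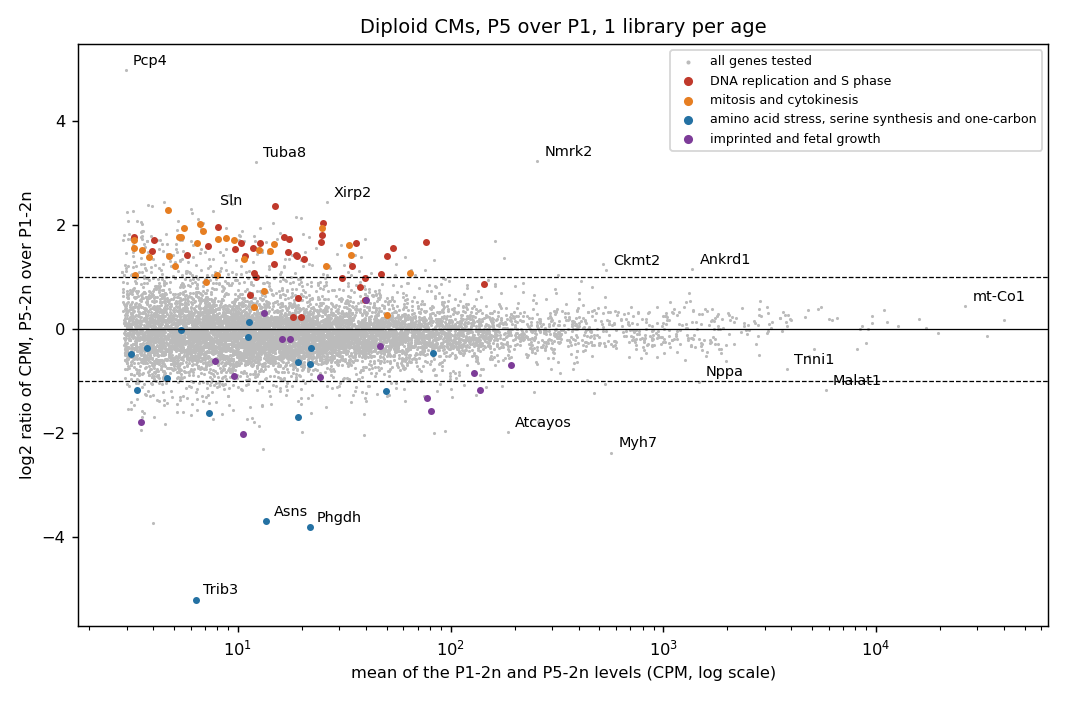
Log2 ratio of P5-2n over P1-2n (vertical axis) against the mean level in CPM (horizontal log axis) for the 9230 genes tested, with 4 gene lists in colour and dashed lines at 2-fold. Most of the S phase and mitosis genes lie above the upper line, while Trib3, Phgdh and Asns lie far below the lower one, and Myh7 and Nmrk2 are the abundant genes farthest from 0.

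The largest ratio of an abundant gene at P5 was that of Nmrk2, a muscle kinase on the path from nicotinamide riboside to NAD. It took 49.2 CPM in P1-2n (45.9 to 52.7) and 461 CPM in P5-2n (451 to 471), a log2 ratio of 3.23 (3.12 to 3.33), or 9.37-fold. In E16.5-2n it took 22.4 CPM, and in 4n CMs it took 38.5 CPM at P1 and 273 CPM at P5. In CMs thinned to 1000 UMIs each, the share with at least 1 UMI of Nmrk2 was 2.89% (2.50 to 3.32) of 6640 CMs at P1 and 27.6% (26.3 to 29.0) of 4393 CMs at P5, while 700 and 20 shallower CMs were left out. Without thinning the shares were 6.36% and 52.5%. Of genes that CMs should lack, Col3a1, a fibroblast collagen, was found in 2.71% and 4.30% of the thinned CMs. Hba-a1, a globin of red blood cells, was found in 1461 of 6640 and 1108 of 4393 (25.2%). Both were unevenly spread over the unthinned CMs. The 1% of CMs with the most held 61.7% and 49.8% of the UMIs of Col3a1 at P1 and P5, and 48.2% and 37.9% of those of Hba-a1. The P1 share of Nmrk2 was close to that of Col3a1. The P5 share lay above that of Col3a1 and close to that of Hba-a1, whose own share was nearly the same at both ages. The median depth of the unthinned CMs was 1831 and 3759 UMIs. No cells that should lack Nmrk2 were sorted, and the share of another gene depends on its own level in its own cells. These shares therefore set no background level for Nmrk2.

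Nmrk2 (ENSMUSG00000004939) lies on the - strand of chromosome 10 of GRCm38 from 81198170 to 81202051. There it sits inside Atcayos (ENSMUSG00000085779), an antisense transcript on the + strand from 81194609 to 81210877. Atcayos took 296 CPM at P1 against 74.6 at P5, a log2 ratio of -1.99 (-2.08 to -1.90), so that the overlapping genes differed in opposite directions. Between E16.5-2n and P1-2n, Atcayos had gone from 128 CPM to 296 CPM. The authors counted reads by strand.

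Myh7, the slow beta-myosin of the fetal ventricle (ENSMUSG00000053093, chromosome 14, 54970684 to 54994626), stood at 3765 CPM in E16.5-2n, then at 955 in P1-2n and at 183 in P5-2n. The log2 ratio from P1 to P5 was -2.38 (-2.43 to -2.33), or 5.20-fold lower. Myh6, the fast alpha-myosin of the adult mouse heart, took 2528 CPM at P1 against 2511 at P5, a log2 ratio of -0.01 (-0.03 to 0.01). The share of Myh6 in the sum of both therefore went from 72.6% (72.2 to 73.0) to 93.2% (93.0 to 93.4) while its own level was nearly the same at both ages. In E16.5-2n this share was 8.55%. Mhrt, an RNA transcribed antisense to Myh7, took 18.1 CPM at P1 and 34.0 CPM at P5, with a log2 ratio of 0.91 (0.71 to 1.12).

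Fewer CMs held Myh7 at P5. At 1000 UMIs, 52.4% (51.2 to 53.6) of the P1-2n CMs, against 13.5% (12.5 to 14.5) at P5, held at least 1 UMI of it, and without thinning 68.5% and 33.2%.

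Other sarcomere switches were smaller. Tnni1, the slow skeletal troponin I of the fetal heart, went from 4813 to 2816 CPM (log2 -0.77, -0.79 to -0.76), and Tnni3 from 8451 to 8749.9 CPM, so that Tnni3 took 63.7% of the pair at P1 and 75.7% at P5. Of 20 working sarcomere genes 0 were called. Their median was 0.12, and their sum went from 74509 to 80535 CPM. The largest ratios among them were those of the M-band protein Myom1 (0.58), the myosin-binding protein Mybpc3 (0.52) and the titin cap Tcap (0.42). Tnnt2, although used to choose the CMs, was lower by 0.38 on the log2 scale, with 9200.0 CPM at P1 and 7063 CPM at P5. Of 14 fetal and smooth muscle type isoforms, Myh7 and Myl4 were called lower and 0 higher, where 1.98% and 3.02% of all genes were. Acta1, the skeletal alpha-actin, stood just under the limit with 64.2 and 125 CPM (0.97, 0.86 to 1.07). Acta2 and Myl9, smooth muscle forms, had log2 ratios of -0.05 and -0.26.

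In P5-2n the atrial genes Myl7, Myl4 and Sln had most of their UMIs in very few CMs. Myl4, the atrial essential light chain, took 185 CPM at P1 and 77.4 CPM at P5, with 3047 and 1387 UMIs. Sln, the atrial regulator of the calcium pump sarcolipin, had 43 UMIs at P1 and 227 at P5, a log2 ratio of 2.28 (1.80 to 2.78). Myl7, the atrial regulatory light chain, was close to level at 118 and 111 CPM. In P5-2n, 27 CMs (0.612%) with 10 or more UMIs of Myl7 held 1750 of the 1989 UMIs of Myl7, 832 of those of Myl4 and 218 of those of Sln. In P1-2n, 15 CMs (0.204%) met this limit and held 469 of 1947 UMIs of Myl7, 226 of Myl4 and 30 of Sln. Of Nppa, by contrast, these CMs held 69 of 32213 UMIs at P1 and 33 of 17439 at P5. Outside these CMs, Myl7 took 90.1 CPM at P1 and 13.4 CPM at P5, levels that follow in part from the choice of CMs by Myl7. Outside them Myl4 took 172 and 31.1 CPM, and Sln had 13 and 9 UMIs. The higher call of Sln thus rested on these CMs, and without them its log2 ratio was -0.65, with too few UMIs for a call. The ratio of Myl4 was -2.47 without them, and its call was lost with each CM weighted alike (-0.79) and after thinning to 1000 UMIs (-0.87). The limit of 10 UMIs was set after the values had been seen.

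**Figure D2:**
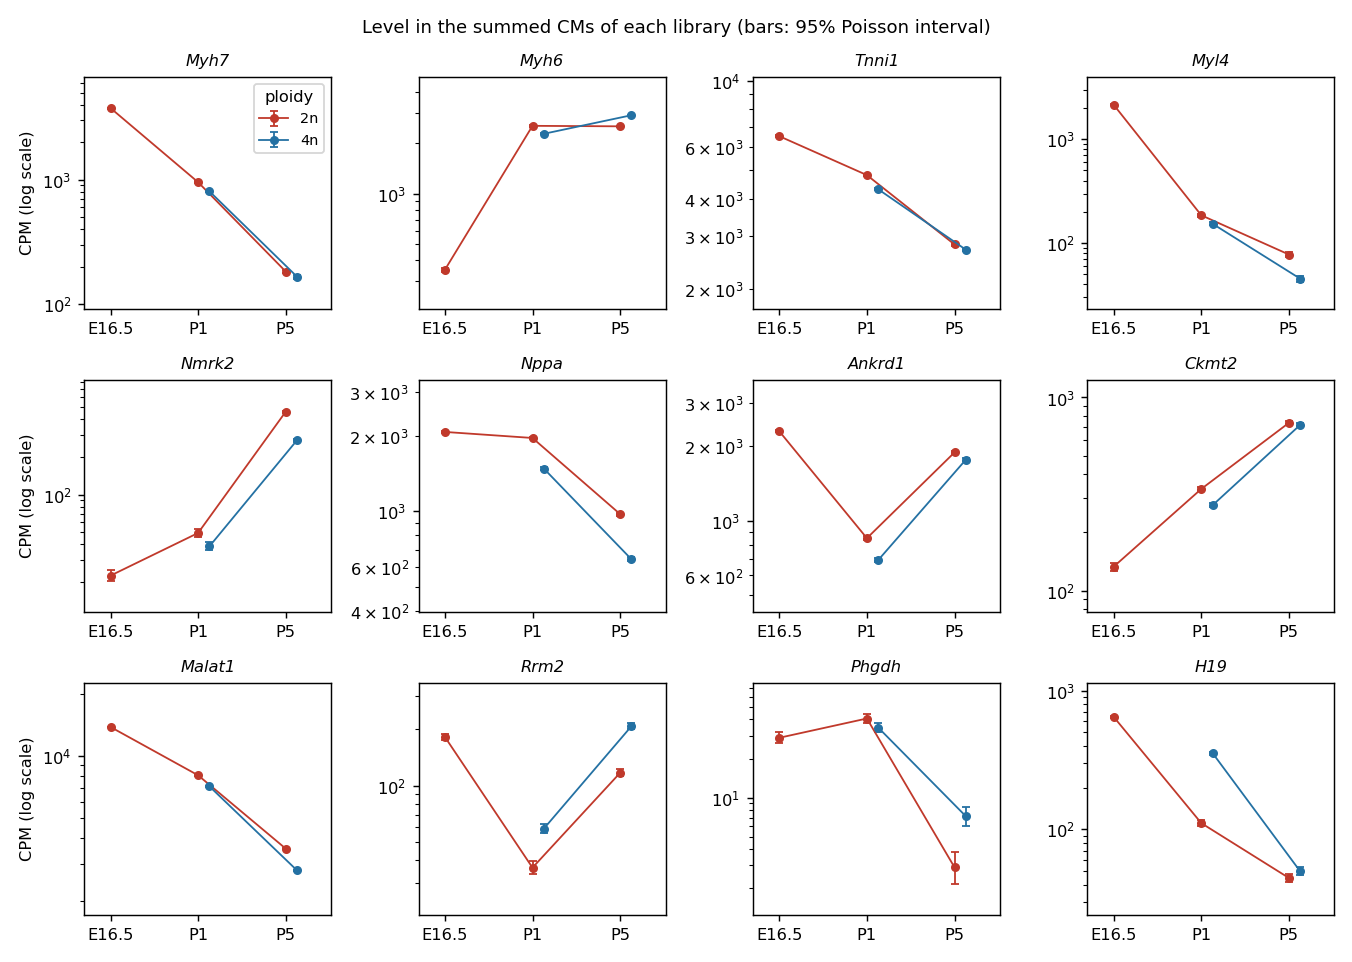
Level of 12 genes in CPM (log axis) in the summed CMs, with 2n at E16.5, P1 and P5 in red, 4n at P1 and P5 in blue, and bars for the 95% Poisson interval. Myh7, Tnni1, Myl4, Malat1 and H19 were lower at each later age, Ankrd1 and Rrm2 dipped at P1, and Nmrk2 and Ckmt2 were higher at each later age.

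Of 7 natriuretic and stretch-responsive genes, 4 were called higher and 1 lower, where 3.02% and 1.98% of all genes were, and the directions were mixed. Ankrd1, a titin-bound stress protein, stood at 2298 CPM in E16.5-2n, then at 849 in P1-2n and at 1887 in P5-2n (1.15, 1.12 to 1.18). At 1000 UMIs, 29.8% (28.7 to 30.9) of the P1-2n CMs, against 63.7% (62.3 to 65.1) at P5, held it, and unthinned 40.3% and 84.9%. Nppb, the B-type natriuretic peptide, went from 209 to 430.3 CPM (1.04, 0.99 to 1.10), whereas Nppa, the A-type peptide, went from 1959 to 973 CPM (-1.01, -1.04 to -0.98). Nppa was so uneven that the 10% of CMs with the most held 84.1% of its UMIs at P1 and 88.7% at P5. The growth factor gene Ctgf took 20.9 and 54.6 CPM (1.39), and Xirp2, an actin-binding protein of the intercalated disc, 8.15 and 44.2 CPM (2.44, 2.18 to 2.72). In CMs of 2000 to 6000 UMIs alone, the ratios of Ankrd1 and Nppb were 0.90 and 0.86 and under the limit. The call of Nppa was lost under 7 of the 15 alternatives, with values down to -0.85. The alternatives that change only the UMI minimum could not move its ratio.

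Calcium cycling and ion transport genes differed little. Of 25 measured genes Sln alone was called higher, against 3.02% of all genes, and 0 were called lower. Their median was 0.08. Pln, which encodes phospholamban, the brake of the calcium pump, went from 5708 to 3998 CPM (-0.51), while the pump itself, Atp2a2, stood at 2449 and 2574 CPM (0.07). The L-type channel gene Cacna1c was lower by 0.64 on the log2 scale. Of 15 intercalated disc genes 0 were called, among them the gap junction gene Gja1 (-0.45) and the disc protein gene Nrap (0.48).

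In energy metabolism a few fasting-type genes were lower at P5, beside pathways that were nearly level. Of 15 measured genes of the PPAR, lipid droplet and ketone list, 5 were called lower, against 1.98% of all genes, and 0 higher. Among these were the uncoupling protein Ucp3 (-1.47), the lipase inhibitor Angptl4 (-1.28), and the thioesterases Acot1 (-1.10) and Acot2 (-1.04), paralogs whose reads may be shared. Oxct1, the enzyme by which cells burn ketone bodies, stood on the other side, with 154 and 284 CPM (0.88, 0.81 to 0.95). Pdk4 and Lpl, which belong to the same list, had ratios of 0.02 and 0.07.

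Over all genes the median ratio was -0.09 and 40.0% lay above 0. The 24 measured genes of fatty acid uptake and beta-oxidation had a median of -0.24, and 0 were called. Of these, 21 lay below 0, among them Acaa2 (-0.44), Eci2 (-0.56) and the liver-type carnitine transferase Cpt1a (-0.64), and Fabp3, the fatty acid binding protein of the heart, was the most abundant of the 3 above 0, with 5820.3 and 6575 CPM. Cpt1b had 5 UMIs at P1 and 8 at P5 and lay under the minimum. The list stood at 8158 CPM in E16.5-2n, then at 18623 in P1-2n and at 17679 in P5-2n. Among 20 genes of glycolysis and lactate 0 were called and the median was 0.18. Ldha went from 797 to 1066 CPM and Ldhb from 1922 to 1579 CPM, so that Ldhb made up 70.7% of the pair at P1, 59.7% at P5 and 49.4% in E16.5-2n. Slc2a4, the insulin-dependent glucose transporter, took 80.6% of its pair with Slc2a1 at P1 and 89.9% at P5.

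The respiratory chain stood slightly higher as a whole. Of 75 nuclear-coded genes 58 had a ratio above 0, against 40.0% of all genes tested, with a median of 0.15 and 0 calls, and their sum went from 162941 to 179577 CPM. The 13 mitochondrially coded genes had a median of 0.18, and mt-Co1 showed the largest difference in CPM towards P5 of all genes, with 22324 at P1 and 30300.2 at P5. Cycs, cytochrome c, was higher by 0.55 and Atp5b, the catalytic beta subunit of ATP synthase, was lower by 0.38 on the log2 scale. The muscle forms took a larger share at P5 in all 3 pairs of cytochrome oxidase, since Cox8b took 46.8% of its pair with Cox8a at P1 and 58.6% at P5, Cox6a2 67.4% and 73.7%, and Cox7a1 26.6% and 30.9%. UMIs of 3′ ends count each molecule once whatever its length, but capture may differ between genes, so that only differences of these shares between ages are read. In the creatine kinase and nucleotide carrier list Ckmt2, the mitochondrial creatine kinase, was the single call of 12 measured genes, against 3.02% of all genes called higher. It took 336 and 739 CPM (1.13, 1.09 to 1.18). Its cytosolic partner Ckm went from 3303 to 2346 CPM (-0.49). The 27 genes of pyruvate entry, the TCA cycle and the malate-aspartate shuttle had 0 calls and a median of 0.04.

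**Figure D3:**
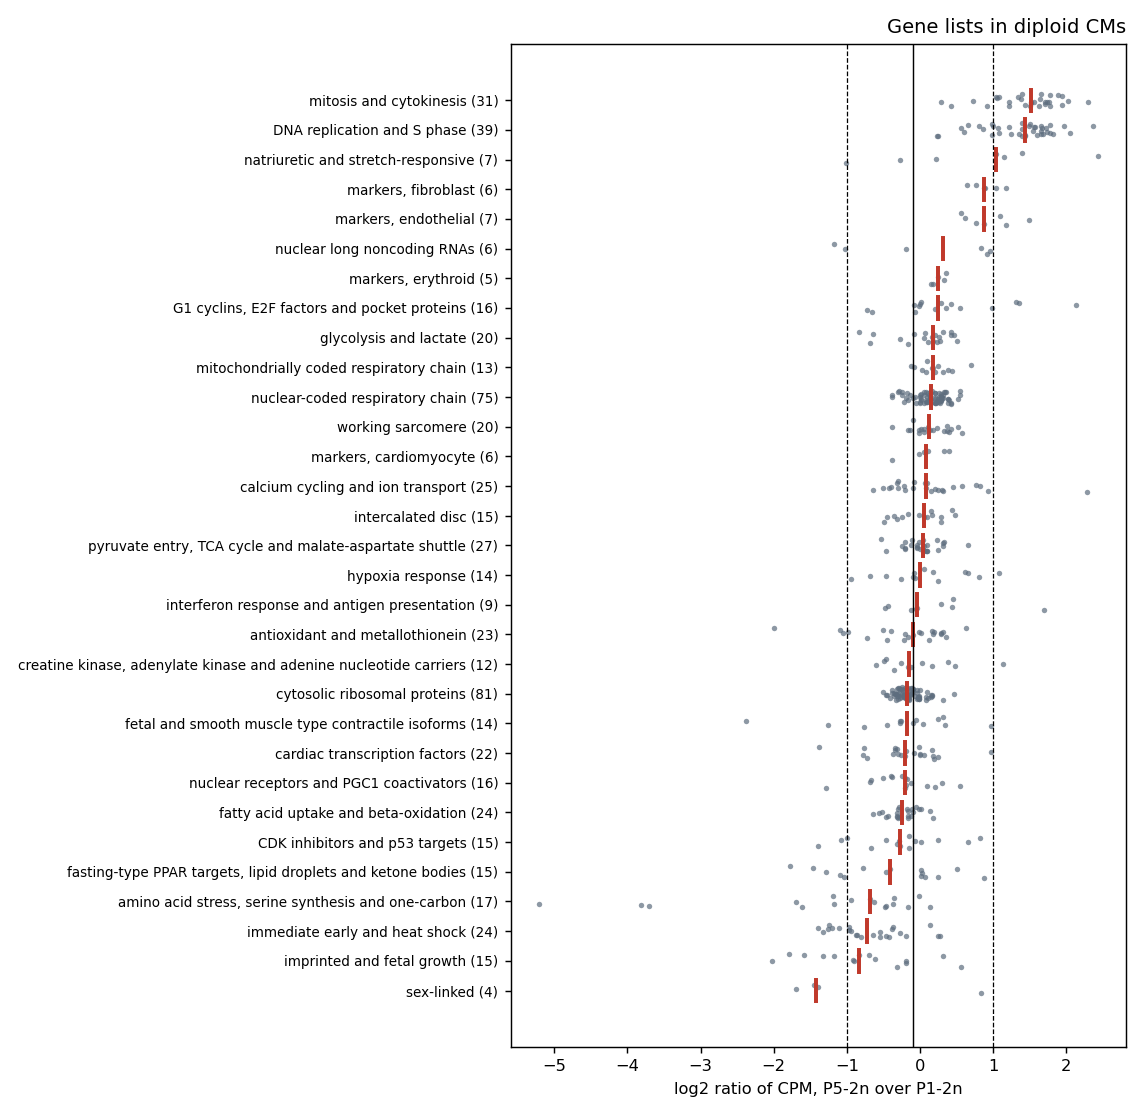
Log2 ratio of P5-2n over P1-2n for the genes of each list with at least 100 UMIs (points, number in parentheses), with a red bar at the median of the list, a solid line at the median of all genes (-0.09) and dashed lines at 2-fold. The mitosis and S phase lists stand apart on the right with medians of 1.52 and 1.43, and the medians of the metabolic and contractile lists lie between -0.41 and 0.18.

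Genes of DNA replication were higher in P5-2n throughout. All 39 genes of the S list with at least 100 UMIs had a ratio above 0, and 30 of them were called higher, where 3.02% of all genes were. The median was 1.43. The 2 members under the minimum, Mcm10 and Gins3, had ratios of 2.25 and 1.89 from few UMIs. Since genes that are low at P1 pass the minimum through P5, the sum over all 41 members is the safer measure, and it went from 591 CPM in P1-2n to 1385 CPM in P5-2n, after 1772 CPM in E16.5-2n. Ccne2, the cyclin E2 that starts replication, took 4.86 and 25.1 CPM (2.37, 2.02 to 2.73). Cdt1, which loads the replicative helicase, took 9.79 and 40.6 CPM (2.05, 1.80 to 2.31). The helicase subunits Mcm2 to Mcm7 lay between 0.99 (Mcm7) and 1.82 (Mcm6). Rrm2, the ribonucleotide reductase subunit made in S phase, took 36.4 and 117 CPM (1.68, 1.55 to 1.81), and Pcna, the sliding clamp, 27.5 and 72.7 CPM (1.40). Rfc1 and Gins4 were the members closest to level (0.23 and 0.24).

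Genes of the G1 cyclins, E2F factors and pocket proteins were higher in part. E2f1, an activator of S phase genes, took 7.36 and 32.1 CPM (2.13, 1.84 to 2.42), and E2f8 (1.31) and the pocket protein Rbl1 (1.35) were called higher as well. These were 3 of 16 measured genes of the G1 list, against 3.02% of all genes called higher, and the median of the list was 0.24. The D cyclin genes differed, with Ccnd1 at 0.99, Ccnd2 at 0.28 and Ccnd3 at 0.01, and Rbl2 (-0.65) and Tfdp2 (-0.72) were lower. Among 15 CDK inhibitors and p53 targets 3 were called lower, against 1.98% of all genes. These were Cdkn1c, which encodes p57, with 11.4 and 4.30 CPM (-1.40, -1.81 to -1.01), Ccng2 (-1.08) and Trp53inp1. Cdkn1a, which encodes p21, went the other way with 18.4 and 32.4 CPM (0.82, 0.62 to 1.03).

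E2F factors bind short motifs, and the letters TTTCCCGC or TTTGGCGC were searched on both strands of the RefSeq promoter windows of GRCm38.p6, which span 250 bases before to 50 bases after the start of transcription. A window was at hand for 33 of the 41 genes of the S list, and 10 of these, or 30.3%, held the letters, against 1.56% of all 32851 windows and 3.73% of the 7149 tested genes with a window. Of 31 mitosis list genes with a window 0 held them, and the median log2 ratio of that list was 1.52. A match is a description of the letters and not a site. The stretches of the 4 measured matching genes with the largest ratios are printed here 5′ to 3′ on the strand of the gene, with the match in capitals. They are Cdt1 at chr8:122567945-122568064 (+ strand), Mcm6 at chr1:128359752-128359871 (- strand), Mcm5 at chr8:75109304-75109423 (+ strand) and Cdc6 at chr11:98907957-98908076 (+ strand).
Cdt1: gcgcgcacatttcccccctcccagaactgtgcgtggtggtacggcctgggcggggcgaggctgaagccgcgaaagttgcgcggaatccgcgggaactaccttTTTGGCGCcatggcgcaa
Mcm6: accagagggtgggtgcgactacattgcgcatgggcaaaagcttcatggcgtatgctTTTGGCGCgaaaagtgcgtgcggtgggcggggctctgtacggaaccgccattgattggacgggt
Mcm5: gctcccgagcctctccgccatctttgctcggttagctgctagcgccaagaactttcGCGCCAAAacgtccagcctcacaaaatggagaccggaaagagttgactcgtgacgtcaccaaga
Cdc6: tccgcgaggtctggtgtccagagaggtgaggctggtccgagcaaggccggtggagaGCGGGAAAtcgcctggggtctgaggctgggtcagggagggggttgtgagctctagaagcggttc
The match in Cdt1 reads TTTGGCGC just behind the start, and that in Mcm6 reads the same before it. In Mcm5 and Cdc6 the letters stand on the other strand, so that the printed strand reads GCGCCAAA and GCGGGAAA. The log2 ratios of these genes were 2.05, 1.82, 1.74 and 1.72. Matches were also found for Mcm7 (0.99) and Rfc3 (0.60), and no match in the windows of Chaf1a (1.97), Lig1 (1.78) and Mcm2 (1.65), so that a match and a large ratio did not always go together.

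Genes of mitosis were higher at P5 too, at lower levels. These CMs were sorted as 2n, whereas cells in mitosis hold 4n DNA. The source of these transcripts in 2n CMs was not tested. Of 31 measured genes all had a ratio above 0, against 40.0% of all genes, and 27 were called higher, against 3.02%, with a median of 1.52. The sum of all 35 members went from 254 to 604 CPM, after 1366 CPM in E16.5-2n. Cdk1, the mitotic kinase, took 16.4 and 50.5 CPM (1.62, 1.42 to 1.82), Top2a, which untangles chromosomes, 10.3 and 39.3 CPM (1.94), and Mki67, the proliferation antigen Ki-67, 4.50 and 14.7 CPM (1.71). Aurkb and Anln, which act in cytokinesis, had ratios of 1.40 and 1.88. The smallest ratios were those of Cenpa (0.28) and Ccnb2 (0.43), and Ccnb1, cyclin B1, lay under the limit at 4.93 and 9.26 CPM (0.91, 0.52 to 1.31). In CMs of 2000 to 6000 UMIs, the medians of the S and mitosis lists were 1.09 and 1.10, closer to the limit than 1.43 and 1.52 over all CMs. This range kept 3036 of 7340 P1-2n and 3460 of 4413 P5-2n CMs and does not match their depth within it. The UMI minimum was applied anew there, so that members low at P1 again passed through P5. The part of depth in these ratios was not tested.

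More CMs held several S phase transcripts at P5. At 1000 UMIs per CM, 4.13% (3.66 to 4.63) of the P1-2n CMs, against 17.5% (16.4 to 18.6) at P5, held at least 3 UMIs of the S list. At 2000 UMIs, which kept 3207 of 7340 P1-2n CMs and 3967 of 4413 P5-2n CMs, the shares were 12.5% and 33.4%. Without thinning they were 12.6% and 50.4%. For at least 3 UMIs of the mitosis list they were 1.97% (1.65 to 2.34) and 6.19% (5.50 to 6.95) at 1000 UMIs, and 3.84% and 17.1% unthinned. CMs past the limit of the S list alone made up 3.09% at P1 and 13.4% (12.4 to 14.5) at P5, those past that of the mitosis list alone 0.934% and 2.14%, and those past both 1.04% and 4.05%. In both libraries CMs past the limit of the S list alone, which may still hold 1 or 2 UMIs of the mitosis list, were the most frequent of these. The S list was the more abundant, with 591 and 1385 CPM against 254 and 604 CPM, and so reaches the same limit more easily. This order therefore does not rank the phases. Thinned CMs past the limit of the S list held Myh7 in 51.5% of cases at P1 and 12.1% (9.89 to 14.6) at P5, and the remaining CMs in 52.4% and 13.8% (12.7 to 14.9), so that no difference in Myh7 between them was detectable at this depth. These limits of 3 UMIs are ranges of a count and not cell types.

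**Figure D4:**
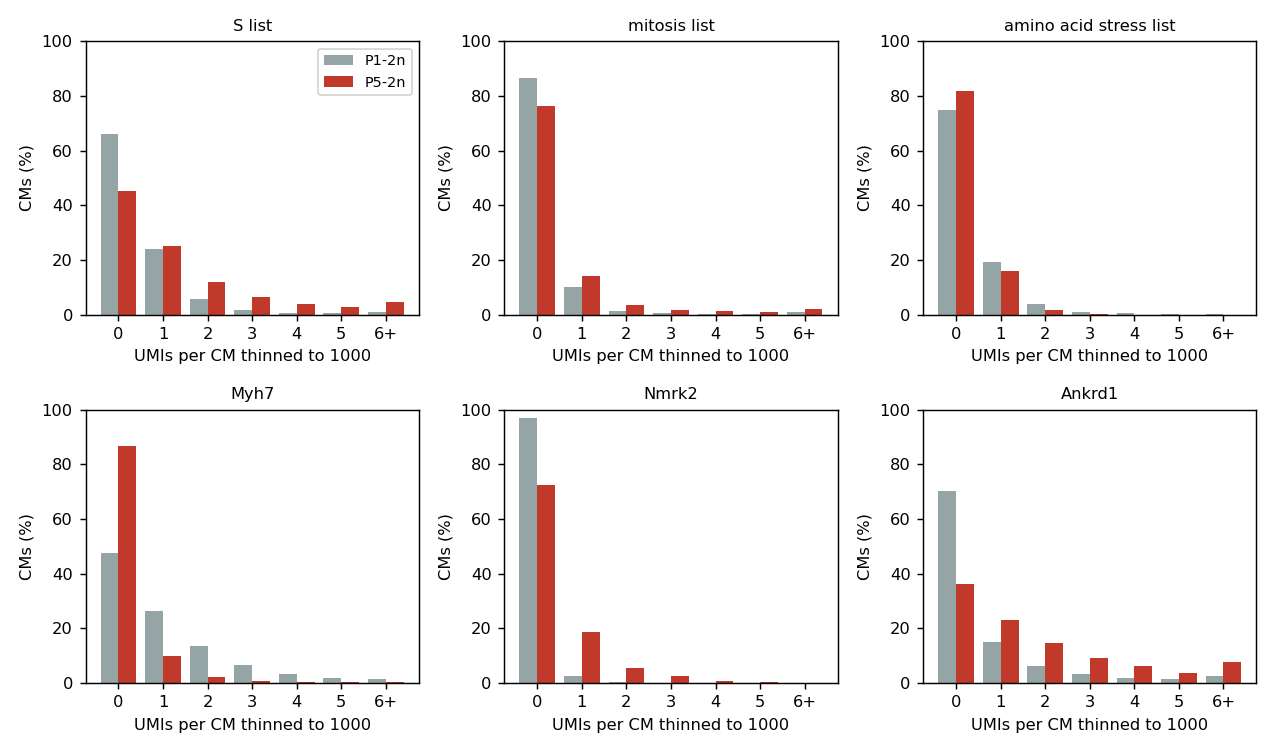
Share of CMs (vertical axis, %) by the number of UMIs of a list or gene (horizontal axis) after each CM was thinned to 1000 UMIs, for 6640 P1-2n CMs (grey) and 4393 P5-2n CMs (red). For the S list, Nmrk2 and Ankrd1 the P5-2n CMs extend further to the right, and for Myh7 the share without a UMI is larger at P5.

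Several genes of the amino acid stress response were much lower at P5 than at P1. ATF4, the factor at the centre of this response, is made when amino acids are short or protein folding is disturbed, and turns on enzymes that make serine and asparagine. Trib3, a pseudokinase that restrains ATF4 (ENSMUSG00000032715), had 204 UMIs at P1 and 6 at P5, or 12.4 and 0.335 CPM, a log2 ratio of -5.21 (-6.67 to -4.06). Phgdh, the first enzyme of serine synthesis, took 40.7 and 2.90 CPM (-3.81, -4.25 to -3.40), and Asns, asparagine synthetase, 25.3 and 1.95 CPM (-3.70, -4.24 to -3.20). The stress-induced chromatin protein Nupr1 took 7.42 and 0.558 CPM (-3.73). These were the 4 lowest ratios of all genes tested, and Nupr1 is not on the list. In E16.5-2n Phgdh took 28.9 CPM, Asns 7.11 CPM and Trib3 2.74 CPM. The list was chosen with earlier results of these data known, so its share of calls is a description only. Of 17 measured genes of the list, 7 were called lower and 0 higher, where 1.98% of all genes were lower, and the median was -0.68. Beside Trib3, Phgdh and Asns these were Mthfd2 (-1.70), Pck2 (-1.62), Ddit3 (-1.19) and Sesn2 (-1.18). Atf4 itself was lower by 0.46 on the log2 scale, and Psat1 and Gdf15 stood at 0.14 and -0.02. Under the minimum, Fgf21 had 67 UMIs at P1 and 2 at P5, Chac1 36 and 4, and Slc7a11 had 0 at P5. The sum over all 20 members went from 411 to 208 CPM. At 1000 UMIs, 5.77% of the P1-2n CMs, against 2.12% (1.71 to 2.59) at P5, held at least 2 UMIs of the list. At 2000 UMIs, with the deeper 3207 P1-2n and 3967 P5-2n CMs alone, the shares were 18.1% and 6.78%. Unthinned, with the deeper P5-2n CMs, they were 16.0% and 20.0%. With each CM weighted alike the ratios of Trib3, Phgdh and Asns were -4.39, -3.13 and -3.10, and in CMs of 2000 to 6000 UMIs those of Trib3 and Asns were -6.31 and -4.34. After thinning to 1000 UMIs those of Trib3 and Phgdh were -3.18 and -3.11. The ratio of Nupr1 lay between -1.99 (thinned) and -5.47 (without CMs with 2 UMIs of another cell type's markers).

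The letters TGATGNAA, in the style of the C/EBP-ATF element by which ATF4 acts, were found in 3.97% of all windows and in 2.36% of the tested genes with a window. Of the 18 genes of the amino acid stress list with a window, 6 (33.3%) held them. Over the whole list 7 of 17 measured genes were called lower, and over all genes 1.98%. Of the holders of the letters 3 were measured, and all were called lower. These 3 are shown in the same way, Trib3 at chr2:152344011-152344130 (- strand), Asns at chr6:7693169-7693288 (- strand) and Pck2 at chr14:55540107-55540226 (+ strand).
Trib3: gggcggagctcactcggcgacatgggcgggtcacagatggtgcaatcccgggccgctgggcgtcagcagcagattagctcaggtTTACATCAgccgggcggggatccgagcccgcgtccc
Asns: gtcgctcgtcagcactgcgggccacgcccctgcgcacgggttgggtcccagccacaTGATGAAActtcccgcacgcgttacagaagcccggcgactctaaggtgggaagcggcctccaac
Pck2: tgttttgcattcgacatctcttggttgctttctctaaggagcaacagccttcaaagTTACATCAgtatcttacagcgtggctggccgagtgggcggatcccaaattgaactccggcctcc
In Asns the letters stand on the strand of the gene. In Trib3 and Pck2 they stand on the other strand, so that the printed strand reads TTACATCA. The other holders were Chac1, Slc7a11 and Fgf21, all under the minimum. Phgdh, Mthfd2, Ddit3 and Sesn2, also called lower, had no match in these windows, so that a match and a lower call did not always go together.

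Most immediate early genes were lower at P5, while Jund had a log2 ratio of 0.24. Of 24 genes of the immediate early and heat shock list, 6 were called lower, against 1.98% of all genes, and 0 higher, with a median of -0.72. The calls were Egr1 (-1.39), Atf3 (-1.33), Gadd45b (-1.26), Ier2 (-1.25), Zfp36 (-1.20) and Junb (-1.11). Fos took 178 and 96.8 CPM (-0.88) and Jun 131 and 66.9 CPM (-0.97). The chaperones were closer to level, with Hspa8 at -0.19 and the small heat shock protein Cryab at 0.27, and since they are abundant, the sum of the list went only from 5708 to 5042 CPM. These genes respond within minutes to cell handling, the dissociation was the same procedure at both ages, and the part of handling in these values was not tested.

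In the imprinted and fetal growth list 5 of 15 measured genes were called lower, against 1.98% of all genes, 0 were called higher, and the median was -0.84. Mest took 122 and 40.6 CPM (-1.58, -1.71 to -1.46), the noncoding H19 111 and 44.7 CPM (-1.32), and its neighbour Igf2, a fetal growth factor, had a ratio of -0.84 (-0.93 to -0.75). Igf2r, the receptor that clears IGF2, went from 191 to 84.6 CPM (-1.18, and -0.98 and no longer called in CMs of 2000 to 6000 UMIs), Gpc3, a surface proteoglycan, from 16.9 to 4.13 CPM (-2.03), and Dlk1 from 5.41 to 1.56 CPM (-1.79). Igf1, the growth factor of postnatal life, stood on the other side with 32.4 and 47.8 CPM (0.56, 0.41 to 0.72). Of the RNA-binding Igf2bp genes, Igf2bp3 (-0.90) and Igf2bp2 (-0.61) were measured, and Igf2bp1 had 49 UMIs at P1 and 12 at P5. Without the CMs that held at least 2 UMIs of markers of another cell type, the ratios of H19 and Mest were -3.46 and -2.65. This left 6575 of 7340 P1-2n and 3078 of 4413 P5-2n CMs.

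Malat1, a nuclear noncoding RNA, showed the largest difference in CPM towards P1 of all genes, from 8069 at P1 to 3566 at P5 (-1.18, -1.19 to -1.16), after 13817 in E16.5-2n. Neat1, a neighbouring nuclear RNA, went from 13.0 to 25.2 CPM (0.96, 0.72 to 1.20). Kcnq1ot1, antisense to Kcnq1, was called lower (-1.03). Zfos1, the host of small nucleolar RNAs also named Zfas1, took 150.3 and 38.4 CPM (-1.97, -2.09 to -1.84). The linker histone gene Hist1h1c took 145 and 58.7 CPM (-1.31, -1.41 to -1.20). The cold-inducible Cirbp, the cardiac protein gene Lrrc10 and the glycogen-binding Stbd1 had ratios of -1.22, -1.19 and -1.28.

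Among 23 antioxidant genes 3 were called lower, against 1.98% of all genes. These were the metallothioneins Mt2 (134 and 33.5 CPM) and Mt1 (716 and 344 CPM, -1.06, and -0.96 when scaled by the median of ratios) and the glutathione transferase Gstm1 (-1.10). Txnip, which binds thioredoxin, lay just under the limit (585 and 295 CPM, -0.99). Among genes named for the size of their ratio, the transferrin receptor Tfrc took 47.6 and 120.1 CPM (1.33, 1.22 to 1.45) and the ferritin light chain gene Ftl1 664 and 283 CPM (-1.23, -1.28 to -1.18). Ftl1 has near-identical copies, so that its count is less certain. Also named for their ratios were 4 alpha-tubulin genes, Tuba4a at 75.8 and 247 CPM (1.70), Tuba1a at 99.8 and 255 CPM (1.36), Tuba1b at 306 and 735 CPM (1.26), and Tuba8 at 2.37 and 21.9 CPM (3.21, 2.73 to 3.72, and 3.85 after thinning to 1000 UMIs). Tuba1a and Tuba1b share much of their sequence, and reads could be split between them. Pcp4, a calmodulin-binding peptide, had the largest ratio of all genes from 3 UMIs at P1 and 103 at P5 (4.98, 3.39 to 7.28), found in 37 P5-2n CMs. The myosin-binding protein Mybpc2 and the kinase Mylk4 were higher by 2.44 and 2.40 on the log2 scale, and that of Mybpc2 was 1.18 after thinning to 1000 UMIs.

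The cardiac transcription factors differed little. Of 22 measured genes, Hey2, a Notch target of the compact ventricular wall, was the single call, with 57.6 and 22.1 CPM (-1.38, -1.55 to -1.21). Gata6 (-0.78), Tbx5 (-0.77) and Irx4 (-0.72) were the next lowest, and Nkx2-5 (-0.19), Gata4 (0.25) and Mef2c (0.05) stayed near the centre. Prrx1, a factor of mesenchymal cells, had the highest ratio (0.97, 0.73 to 1.21). Klf15, a glucocorticoid-induced metabolic regulator, was the single call of 16 nuclear receptors and coactivators, with 12.8 and 5.24 CPM (-1.29). Ppargc1a, Esrra and Ppara had ratios of -0.40, -0.13 and -0.21. In the hypoxia list Epas1 was the single call of 14 (1.08, 0.83 to 1.33) and Hif1a stood at -0.08. In the interferon list Ly6e was the single call of 9 (1.69). Beside these single calls, 3.02% of all genes were called higher and 1.98% lower. Of 81 measured ribosomal protein genes 0 were called, 71 lay below 0, and the median was -0.18. Over all genes the median was -0.09 and 40.0% lay above 0.

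Transcripts of other cell types were present at low levels and differed with age. The fibroblast markers took 141 CPM in P1-2n against 261 in P5-2n, and 2 of 6 measured markers were called higher, namely Col1a1 (1.18) and Col1a2 (1.04), while Col3a1 stood at 44.0 and 81.5 CPM (0.89). The endothelial markers took 261 and 456 CPM, a sum made up mostly of Fabp4 (10783 UMIs in both libraries, 0.77). Of the 7 endothelial markers 3 were called higher, and Cdh5 stood at 6.81 and 19.1 CPM. Beside both sets, 3.02% of all genes were called higher. Mural markers took 104 and 101 CPM, a sum made up mostly of Abcc9 (2744 UMIs in both libraries, -0.33), while Rgs5 had a ratio of 1.09. The other mural markers lay under the minimum. From few UMIs, Myh11, Notch3 and Pdgfrb had ratios of 1.14, 1.10 and 1.10, and Kcnj8 one of -0.12. Immune markers took 8.57 and 12.4 CPM. Epicardial markers took 2.43 and 4.30 CPM, Schwann and neural markers 2.07 and 2.18 CPM with Sox10 at 0, and red blood cell markers 1895 and 2242 CPM. The CM markers took 35009 and 35580.4 CPM. At 1000 UMIs, at least 2 UMIs of fibroblast markers were found in 1.60% and 2.73% of the CMs, and of endothelial markers in 2.83% and 5.83%. CMs with at least 2 unthinned UMIs of the fibroblast, endothelial, mural, immune or epicardial markers were then left out, and red blood cell markers were not used. This left 6575 of 7340 P1-2n and 3078 of 4413 P5-2n CMs. Unthinned, the endothelial markers alone reached the limit in 7.21% and 23.7% of CMs, so that the deeper P5-2n CMs lost the larger share. Fabp4 and Abcc9 made up most of the endothelial and mural UMIs. The filter may therefore also leave out CMs that hold no RNA of another cell, which was not tested. Among the CMs left, 185 genes were higher and 212 lower. The medians of the S and mitosis lists were 1.42 and 1.44, and that of the amino acid stress list was -0.80. Under this setting the log2 ratio of the endothelial receptor gene Kdr was 0.23 in place of 1.18. Kdr is itself one of the markers by which CMs were left out, so that this fall follows in part from the filter. The part of other cells in the remaining results was not tested beyond these values.

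Sex-linked transcripts differed as well. Xist, expressed from the silent X chromosome of females, took 60.7 and 108 CPM (0.83, 0.72 to 0.94), and the Y-linked Ddx3y (-1.45), Eif2s3y (-1.40) and Uty (-1.69) were called lower at P5. In 4n CMs the ratios of Ddx3y, Eif2s3y and Uty were -1.24, -1.19 and -2.01, and that of Xist was -0.19. The part of the sex of the pooled pups in the other ratios was not tested.

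In tetraploid CMs of the same ages, 9764 genes were tested from P1 to P5, of which 234 (2.40%) were called higher and 571 (5.85%) lower. Of the 279 genes higher in 2n, 126 were also called higher in 4n, which is 45.2% of the 2n calls and 53.8% of the 4n calls. Of the 183 genes lower in 2n, 120 were also called lower in 4n, or 65.6% of the 2n and 21.0% of the 4n calls. In 4n the log2 ratios of Nmrk2, Myh7, Trib3 and Malat1 were 2.83, -2.28, -4.21 and -1.35, in the same direction as in 2n. The S list was called higher in 7 of 38 measured genes in 4n with a median of 0.61, and its sum went from 615 to 1051 CPM. The mitosis list was called higher in all 35 genes in 4n, with a median of 1.74 and a sum of 922 and 3146 CPM. Replication genes thus had the larger ratio in 2n and mitosis genes in 4n, in 1 library each. The groups were sorted by DNA content, which differs between cell cycle phases. The part of the sort in this difference was not tested. Ccne2 took 4.58 and 7.61 CPM in 4n (0.73), and Hist1h1c, called lower in 2n, had a log2 ratio of 0.47 in 4n. The fibroblast markers took 939 CPM at P1 and 357 CPM at P5 in 4n, whereas they were higher at P5 in 2n. In 4n the endothelial markers took 743 and 477 CPM at P1 and P5, and the immune markers 31.5 and 10.1 CPM. The red blood cell markers took 2906 and 1649 CPM there. The part of other cells in the 4n calls was not tested.

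**Figure D5:**
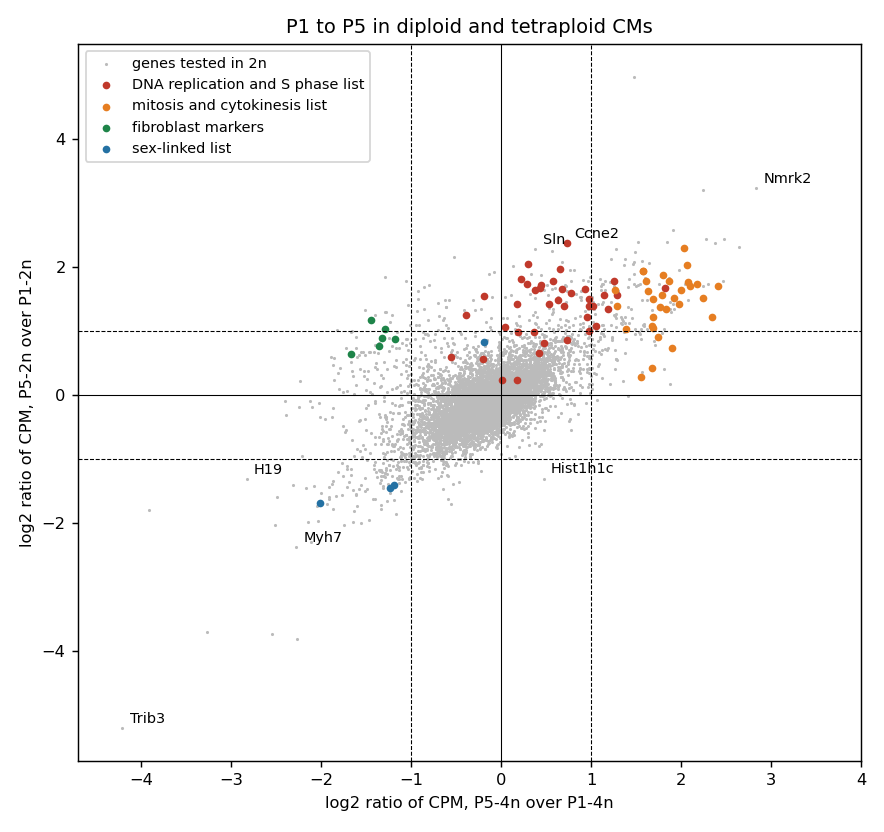
Log2 ratio of P5 over P1 in 4n CMs (horizontal axis) and in 2n CMs (vertical axis) for genes tested in 2n, with 4 lists in colour and dashed lines at 2-fold. Mitosis genes lie past 2-fold on the 4n axis, many S phase genes are past it in 2n alone, and the fibroblast markers lie on opposite sides of 0.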

How the data were processed

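The libraries were droplet 3′ single-cell libraries of methanol-fixed, sorted CMs. The authors aligned reads with STAR in Cell Ranger (version not given in the sources used here) to mm10 and deposited raw counts of UMIs per gene and cell. Seurat 2.3.0 is named in the submitters' processing notes. The deposited counts were used as they stand. The CMs were kept by 4 marker genes, UMIs were summed per library, and CPM, ratios and exact intervals were computed with Python 3.11.15, numpy 2.4.6, scipy 1.17.1 and pandas 2.3.3. Genes with fewer than 100 UMIs in both libraries together were not called. Ratios carry Clopper-Pearson intervals and levels Poisson intervals, at 95%. No doublet caller was run, and CMs of the highest UMI counts were left out as an alternative. CMs were thinned without replacement to 1000 or 2000 UMIs. The calculation was tested on simulated data. Named genes were the list members, the 15 largest ratios in each direction over all genes and over genes of at least 100 CPM, the 10 largest CPM differences, and markers. Genes were placed by GENCODE on GRCm38. The members and gene lists were chosen with earlier results of these data known. There was 1 library per group, so that no test was made. Alternatives covered scaling, weighting, thinning, CM filters, depth range and the UMI minimum. A few genes of the lists are not reported here by name.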

Additional observations from a re-analysis of the deposited data

Results flagged for a closer look

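Called by 2-fold, 14 genes were higher at P5 in 2n CMs and lower at P5 in 4n CMs, and 0 genes showed the reverse. Over all genes, 3.02% of 9230 were called higher in 2n and 5.85% of 9764 lower in 4n. For the reverse, 1.98% were called lower in 2n and 2.40% higher in 4n. Whether 14 differs from the overlap that such shares alone would give was not tested. The log2 ratio of P5 over P1 in 2n minus that in 4n is given in parentheses for Bgn (2.58), Cav2 (2.12), Col14a1 (2.38), Col15a1 (2.60), Col1a1 (2.63), Col1a2 (2.33), Col5a1 (2.85), Col6a3 (2.85), Fscn1 (3.13), Igfbp7 (2.66), Mfap4 (2.83), Pxdc1 (2.45), Rcn3 (2.65) and Tagln2 (2.47). The difference was not tested, since each of the 4 groups is 1 library. Col1a1 took 16.6 and 37.7 CPM at P1 and P5 in 2n and 143 and 52.5 CPM in 4n, and Fscn1, an actin-bundling protein gene, 1.34 and 4.80 CPM in 2n and 14.3 and 5.87 CPM in 4n. The 7 fibroblast markers together took 141 and 261 CPM in 2n and 939 and 357 CPM in 4n. Their part in these ratios was not tested.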

How the results depend on the processing

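The median ratio over all genes lay between -0.12 and 0.00 under the 15 alternatives. The 279 higher genes became 115 after thinning each CM to 1000 UMIs (6346 genes tested), 185 without CMs with 2 UMIs of another cell type's markers (8409 tested) and 163 in CMs of 2000 to 6000 UMIs (8125 tested). They became 541 with a minimum of 30 UMIs, 79 with a minimum of 500, and 1108 with at least 1 UMI in each library. The 183 lower genes became 341, 71 and 1051 under these 3 minimums. The minimums change how many genes are tested, and for the other settings the cause was not tested. Scaling by the median of ratios gave 325 higher and 137 lower genes and shifted all ratios by 0.09. The ratio of Sln turned to -0.65 without CMs with 10 or more Myl7 UMIs, an alternative chosen after seeing the data, as was leaving out barcodes found in both libraries. Of 870 values of called single genes under the alternatives, 18 came under 2-fold and 1 reversed, and of 461 list medians 11 changed side relative to all genes. The 3 settings that change only the UMI minimum leave every single-gene ratio as it was. Their values among the 870 could therefore not move. No paired analysis was possible because each group is 1 library and no result comes from a test. Depth limits rare transcripts, with a median interval width of 0.50 on the log2 scale.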
